A study of Mus musculus with 15 samples.

Results

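The Gadd45 stress genes are a family of 3 genes, Gadd45a, Gadd45b and Gadd45g. They were taken by name from the 19938 genes that the arrays measured, and each was read by 1 probe set. Their mRNA levels were measured in whole thymus of 5-week-old female mice that had received 0.5 µg of peptide intravenously 2 h earlier. In all, 15 arrays were analysed, each hybridised with the RNA of 1 mouse. NOD.LCMV mice received gp33, a peptide that the labels tie to induced negative selection (n = 3), or a control peptide that also binds the class I molecule Db (n = 3). NOD.Ln82-LCMV mice received gp33 (n = 5) or the same control peptide (n = 4). By their names, all groups carried the LCMV element on a NOD background, and Ln82 was what set the strains apart. The labels describe neither the LCMV element nor the Ln82 segment, and the series title names Nfkbid as a gene of the Idd7 diabetes locus that affects thymic deletion of CD8 T cells. The labels name no batch, and strain effects cannot be told apart from those of any batch that coincided with strain. The arrays had medians between 7.59 and 7.67 on the log2 scale and correlations of at least 0.99 within each group. Array weights, which are low for an array far from its group means, ran from 0.2815 to 2.758. The lowest was that of NOD.Ln82-LCMV gp33 replicate 5, whose median of 7.63 was also the highest of its group. The medians differed by strain too. With control peptide they were 7.66 to 7.67 in NOD.LCMV and 7.59 to 7.62 in NOD.Ln82-LCMV. With gp33 they were 7.63 to 7.64 and 7.59 to 7.63. Results with arrays centred on their medians are given below. The thymocyte marker list, which checks the labelled tissue, averaged between 11.02 and 11.82 on the log2 scale over the 15 arrays.

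Gadd45 proteins are small acidic proteins with no known enzyme activity of their own. They are induced by DNA damage, cytokines and antigen receptor signals, and they work by binding other proteins. They open the autoinhibited kinase MAP3K4 and so feed the p38 and JNK pathways. They also bind PCNA, the cyclin-dependent kinase inhibitor p21 and CDK1. Gadd45a was found as a DNA damage gene and is a classical p53 target. Gadd45b is induced through NF-κB and TGF-β, and Gadd45g is also known as a cytokine response gene of T cells. In T helper 1 cells Gadd45b and Gadd45g promote interferon-γ production through p38.

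The promoters are shown because the 3 genes responded differently to gp33, as the following results give. Each sequence holds the 250 bases before the RefSeq transcription start on the GRCm38.p6 build, 5′ to 3′ on the strand of the gene, and all 3 genes were matched by symbol. Gadd45a lies on the minus strand with its promoter at chr6:67037408-67037657, Gadd45b on the plus strand with chr10:80929841-80930090, and Gadd45g on the plus strand with chr13:51846425-51846674. Capitals mark matches to any of 9 motifs searched on both strands.
Gadd45a: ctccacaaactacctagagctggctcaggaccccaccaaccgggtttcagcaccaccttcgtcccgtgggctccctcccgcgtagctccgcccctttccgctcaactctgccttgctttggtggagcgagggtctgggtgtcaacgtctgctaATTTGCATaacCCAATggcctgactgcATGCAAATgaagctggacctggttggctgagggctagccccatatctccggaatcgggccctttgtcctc
Gadd45b: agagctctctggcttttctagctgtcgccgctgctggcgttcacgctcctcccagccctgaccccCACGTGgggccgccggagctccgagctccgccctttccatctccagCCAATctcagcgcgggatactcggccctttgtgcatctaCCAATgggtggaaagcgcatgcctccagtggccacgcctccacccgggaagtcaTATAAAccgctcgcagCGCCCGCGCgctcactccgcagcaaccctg
Gadd45g: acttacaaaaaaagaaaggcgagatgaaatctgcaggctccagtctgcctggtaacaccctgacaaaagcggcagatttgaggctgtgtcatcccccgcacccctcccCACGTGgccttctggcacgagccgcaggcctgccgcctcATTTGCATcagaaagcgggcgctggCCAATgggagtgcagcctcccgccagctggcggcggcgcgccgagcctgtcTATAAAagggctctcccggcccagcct
Counted from the transcription start, the Gadd45a promoter held the octamer ATTTGCAT at -97 to -90, its reverse complement at -70 to -63, and a CCAAT box starting at -86. The Gadd45b promoter held the E-box CACGTG starting at -185, CCAAT boxes starting at -139 and -100, the TATA box TATAAA at -46 to -41 and, on the reverse strand, the EGR motif GCGNGGGCG at -30 to -22. The Gadd45g promoter held an E-box starting at -142, an octamer at -103 to -96, a CCAAT box starting at -78 and a TATA box at -27 to -22. The TATA letters and the E-box thus stood in Gadd45b and Gadd45g and not in the Gadd45a window, and the octamer in Gadd45a and Gadd45g. Whether any of these motifs bears on the gp33 responses was not tested. None of the matches overlapped another. No match in any of the 3 windows was found for AP-1 (TGANTCA), CRE (TGACGTCA), the NF-κB consensus or the CArG box, which says only that these letters are not in these windows. Of 32851 RefSeq promoters of the same length, 1.6% held the octamer, 33.8% CCAAT, 12.4% TATAAA, 6.02% the E-box and 4.7% the EGR motif. AP-1 letters stood in 6.75%, CRE in 1.55%, the NF-κB consensus in 3.9% and the CArG box in 1.47%. GC content was 59.2% for Gadd45a, 65.2% for Gadd45b and 62% for Gadd45g, against a median of 52.4% over all these promoters.

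Gadd45b, the member linked to NF-κB and TGF-β, responded most strongly of the 3 to gp33. In NOD.LCMV thymus it was at 11.70, 11.95 and 11.64 (log2 intensity) after gp33, against 8.64, 8.55 and 8.45 after control peptide. The groups did not overlap, as was so for 32.9% of all genes (10.9% with gp33 higher), and the lowest gp33 mouse lay 3.00 above the highest control mouse. The means were 11.76 ± 0.16 with gp33 and 8.55 ± 0.10 with control peptide (SD, n = 3 each). Gadd45b rose by 3.22 ± 0.21 (log2, SE), a 9.30-fold increase with a 95% confidence interval of 6.82 to 12.7 (limma, adjusted p = 3.41e-08). In this comparison 19.8% of all genes were called at an adjusted p under 0.05, 7.29% as higher and 12.5% as lower, so that a call by itself was common. Among the 1453 genes that rose, Gadd45b ranked 14 by the size of its fold change. Because the RNA came from whole thymus, a change in the number of cells that hold a transcript and a change in the transcript per cell cannot be told apart.

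In NOD.Ln82-LCMV thymus Gadd45b was at 10.03, 9.60, 9.46, 9.38 and 10.08 after gp33, against 8.62, 9.09, 9.47 and 9.43 after control peptide. The gp33 mice lay higher on average, but the groups overlapped, with control replicates 3 and 4 above the lowest gp33 mouse. In this strain 1.51% of all genes did not overlap, 0.667% with gp33 higher. The means were 9.71 ± 0.33 with gp33 (SD, n = 5) and 9.15 ± 0.39 with control peptide (SD, n = 4). The difference of 0.56 ± 0.17 (log2, SE), 1.47-fold with an interval of 1.14 to 1.90, missed the threshold (limma, adjusted p = 0.651; unadjusted p = 0.00558). Only 1 gene, or 0.00502% of those tested, passed in this strain, while 1190 had an unadjusted p under 0.05. That gene, named after its value was seen, was the activation marker Cd69, with a smaller difference than Gadd45b and a smaller error (0.46 ± 0.06, log2, SE; limma, adjusted p = 0.0215). The spread of Gadd45b was wider here than in NOD.LCMV, and without control replicate 1 the difference was 0.38. The Gadd45b response to gp33 was 6.32-fold larger in NOD.LCMV than in NOD.Ln82-LCMV (interval 4.23 to 9.43), a difference of 2.66 ± 0.27 on the log2 scale (limma, adjusted p = 1.12e-05). For this difference between responses 8.73% of all genes were called, 4.46% as higher in NOD.LCMV and 4.26% as lower.

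Gadd45g, the cytokine response member, had the same order of group means, with smaller differences between them. In NOD.LCMV thymus it was at 8.63, 8.66 and 8.55 after gp33, against 7.27, 7.23 and 7.09 after control peptide. The groups did not overlap and were 1.28 apart. The means were 8.61 ± 0.06 with gp33 and 7.20 ± 0.09 with control peptide (SD, n = 3 each). Gadd45g rose by 1.42 ± 0.08 (log2, SE), which is 2.67-fold with an interval of 2.36 to 3.02 (limma, adjusted p = 1.3e-08). It ranked 104 by size among the genes that rose, and 195 genes rose at least 2-fold.

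In NOD.Ln82-LCMV thymus Gadd45g was at 7.50, 7.44, 7.50, 7.43 and 7.72 after gp33, against 7.21, 7.48, 7.33 and 7.49 after control peptide. The groups overlapped, and replicate 5 of the gp33 group was the highest mouse. The means were 7.52 ± 0.12 with gp33 (SD, n = 5) and 7.38 ± 0.13 with control peptide (SD, n = 4). The difference of 0.14 ± 0.07, 1.10-fold with an interval of 0.996 to 1.22, missed the threshold (limma, adjusted p = 0.844; unadjusted p = 0.0592). The response of Gadd45g was 2.42-fold larger in NOD.LCMV (interval 2.06 to 2.84), a difference of 1.28 ± 0.11 on the log2 scale (limma, adjusted p = 2.13e-06).

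Gadd45a, the p53 target of the family, did not pass the test in any of the 5 comparisons. In NOD.LCMV thymus it was at 8.60, 8.86 and 8.61 after gp33, against 8.50, 8.71 and 8.77 after control peptide. In NOD.Ln82-LCMV thymus it was at 8.55, 8.40, 8.36, 8.44 and 8.66 after gp33, against 8.55, 8.35, 8.62 and 8.49 after control peptide. The gp33 and control mice overlapped in both strains. Group means were 8.69 ± 0.15 with gp33 and 8.66 ± 0.14 with control peptide in NOD.LCMV (SD, n = 3 each), and 8.48 ± 0.12 with gp33 (SD, n = 5) and 8.50 ± 0.11 with control peptide (SD, n = 4) in NOD.Ln82-LCMV. In NOD.LCMV the fold change with gp33 was 1.02 (interval 0.886 to 1.18; limma, adjusted p = 0.913). In NOD.Ln82-LCMV it was 0.986 (interval 0.877 to 1.11; limma, adjusted p = 0.995). These intervals hold changes of either sign, and the NOD.LCMV one ends far below the folds of Gadd45b and Gadd45g. The responses of the strains differed by 0.05 ± 0.12 on the log2 scale (interval -0.21 to 0.32; limma, adjusted p = 0.908).

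**Figure D1:**
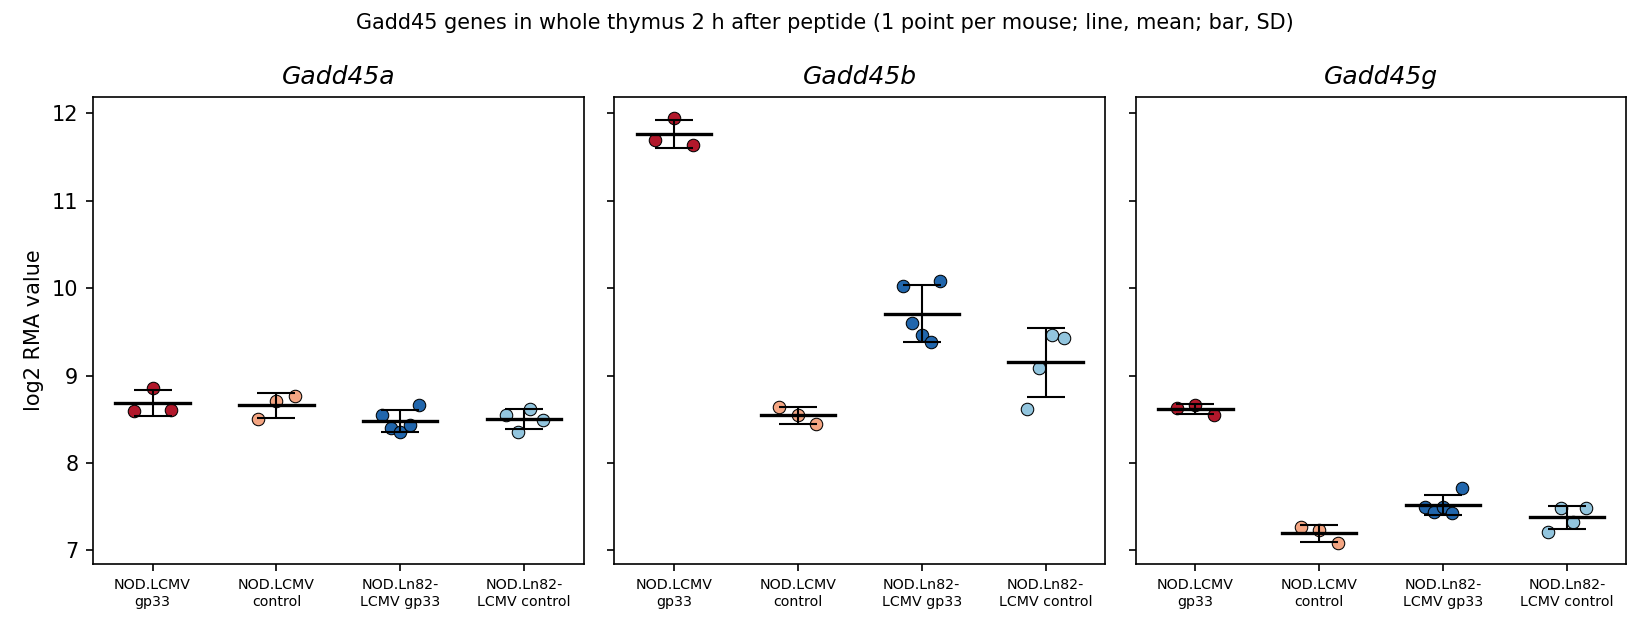
Log2 intensity (vertical axis) of Gadd45a, Gadd45b and Gadd45g in the 4 groups, NOD.LCMV gp33, NOD.LCMV control, NOD.Ln82-LCMV gp33 and NOD.Ln82-LCMV control, with a point for each mouse, a line at the group mean and bars for the SD. The 3 NOD.LCMV gp33 mice lie apart from all others for Gadd45b (11.64 to 11.95) and Gadd45g (8.55 to 8.66), whereas the groups of Gadd45a overlap.

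The mice of both strains were then compared under the same peptide, using the same arrays as the responses, so these comparisons are not independent of them. With gp33, Gadd45b was 4.15-fold higher in NOD.LCMV than in NOD.Ln82-LCMV (interval 3.15 to 5.48; limma, adjusted p = 1.05e-06), and the strains were 1.56 apart on the log2 scale. Gadd45g was 2.14-fold higher (interval 1.91 to 2.39; limma, adjusted p = 5.34e-08), with a gap of 0.83. In this comparison 27% of all genes were called, 10.2% as higher in NOD.LCMV and 16.8% as lower, and 26.9% of all genes did not overlap, 10.6% with NOD.LCMV higher. Gadd45a differed by 0.21 ± 0.09 on the log2 scale, 1.16-fold with an interval of 1.02 to 1.31, and did not pass after adjustment (limma, adjusted p = 0.092). It passed when NOD.Ln82-LCMV gp33 replicate 5 was left out (0.25, limma, adjusted p = 0.0339).

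With control peptide the sign of the strain difference was the other way for Gadd45b and Gadd45g, and no member passed the test, while 10.3% of all genes did, 4.77% as higher and 5.54% as lower in NOD.LCMV. The strains overlapped for all 3 members, whereas 19.6% of all genes did not overlap. Gadd45b was at 0.657 of its NOD.Ln82-LCMV level in NOD.LCMV mice (interval 0.492 to 0.878), a difference of -0.61 ± 0.20 on the log2 scale (limma, adjusted p = 0.0646). This difference lay close to the threshold, and it passed when NOD.Ln82-LCMV control replicate 1 was left out (-0.78, limma, adjusted p = 0.00672) or NOD.Ln82-LCMV gp33 replicate 5, which enters only the shared spread (limma, adjusted p = 0.0482). Gadd45g was at 0.882 of its NOD.Ln82-LCMV level (interval 0.786 to 0.990; limma, adjusted p = 0.18). For Gadd45a the difference was 0.16 ± 0.09 (limma, adjusted p = 0.341).

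The order of the group means was thus the same for Gadd45b and Gadd45g, with NOD.LCMV gp33 highest, then NOD.Ln82-LCMV gp33, NOD.Ln82-LCMV control and NOD.LCMV control. In both genes the step between the highest group and the next passed the test, and the lower steps did not. For Gadd45a the order was NOD.LCMV gp33, NOD.LCMV control, NOD.Ln82-LCMV control and NOD.Ln82-LCMV gp33, and no step between neighbouring groups passed the test.

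The same single values were also compared by exact permutation of the mice, two-sided and without adjustment over the 15 tests. In NOD.LCMV the exact permutation p was 0.1 for Gadd45b, 0.1 for Gadd45g and 1.0 for Gadd45a, where 0.1 is the smallest that 3 against 3 mice allow. In NOD.Ln82-LCMV it was 0.0714 for Gadd45b, 0.175 for Gadd45g and 0.802 for Gadd45a. Between the strains with gp33, the exact permutation p was 0.0179 for Gadd45b and for Gadd45g, the smallest possible, and 0.0893 for Gadd45a. With control peptide it was 0.0857 for Gadd45b, 0.143 for Gadd45g and 0.171 for Gadd45a. For the difference between responses it was 0.00102 for Gadd45b, 0.00153 for Gadd45g and 0.766 for Gadd45a over 1960 rearrangements within each peptide, which also break up the strain difference under gp33.

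**Figure D2:**
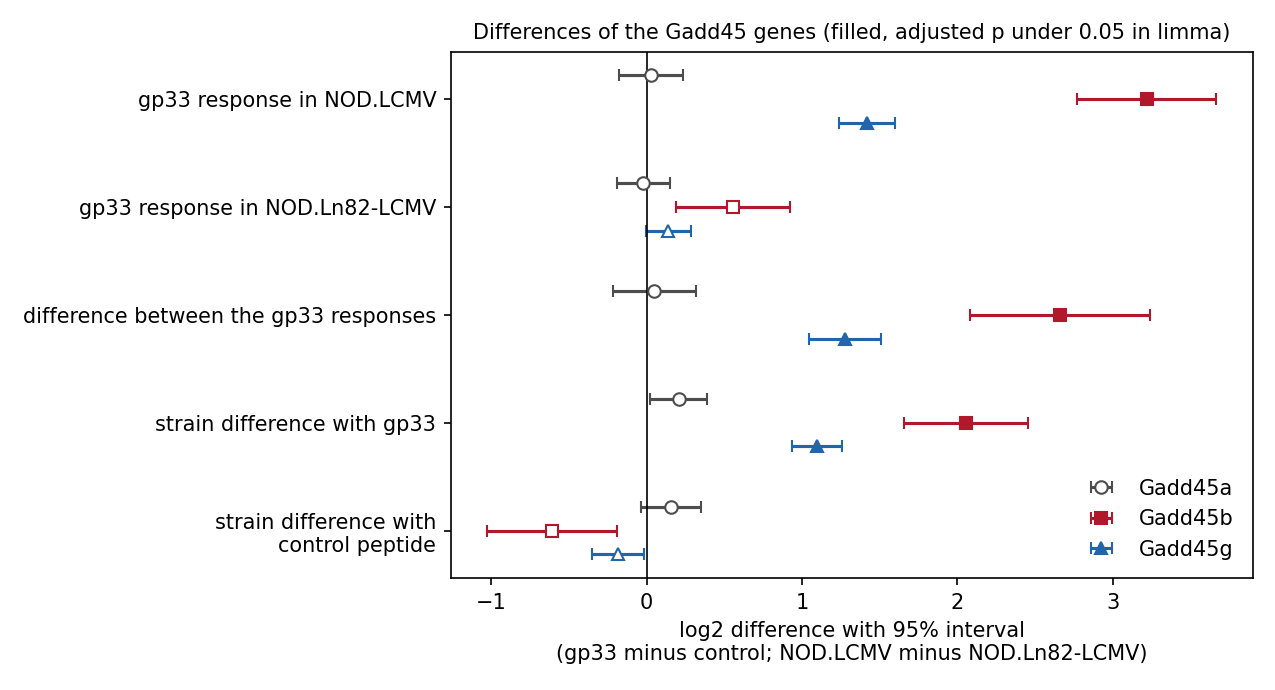
Log2 differences with 95% confidence intervals (horizontal axis) of the 3 genes in the 5 comparisons, from the limma fit over all arrays. Gadd45b and Gadd45g lie to the right of 0 in NOD.LCMV (3.22 and 1.42), in the difference between responses (2.66 and 1.28) and between the strains with gp33 (2.05 and 1.10), and Gadd45a lies between -0.02 and 0.21. Filled points had an adjusted p under 0.05.

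Differences between members were taken within each mouse and compared between the groups of mice. They follow from the values above and are no separate result. The difference of Gadd45b minus Gadd45g on the log2 intensity scale was 3.15 ± 0.12 in NOD.LCMV gp33 mice and 1.35 ± 0.03 in NOD.LCMV control mice (SD, n = 3 each). It was 2.19 ± 0.25 in NOD.Ln82-LCMV gp33 mice (SD, n = 5) and 1.78 ± 0.33 in NOD.Ln82-LCMV control mice (SD, n = 4). The distance between both genes was thus widest after gp33 in NOD.LCMV, where it ran from 3.07 to 3.29. Gadd45b minus Gadd45a averaged 3.07 in NOD.LCMV gp33 mice, against -0.11 in NOD.LCMV control mice. Since each gene has its own probe set, only the change of these differences between groups can be read, not their size in 1 group.

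The genes whose 15 values were most like those of each responding member were sought among 17031 genes, by the root mean square (RMS) difference of values centred on each gene's mean. For Gadd45b these were Tnfrsf9, the costimulatory receptor 4-1BB (RMS 0.199), Nr4a1, the orphan nuclear receptor Nur77 induced by T cell receptor signals (0.253), the chemokine Cxcl10 (0.258), the Nur77 relative Nr4a2 (0.276) and the chemokine Cxcl9 (0.283). The log2 values of Gadd45b itself had an SD of 1.12 over the arrays. In NOD.LCMV, Tnfrsf9 rose by 3.09 ± 0.23, Nr4a1 by 2.80 ± 0.20 and Nr4a2 by 3.36 ± 0.16 (log2, SE), close to the 3.22 of Gadd45b. In NOD.Ln82-LCMV the differences were 0.70 ± 0.19 for Tnfrsf9, 0.86 ± 0.17 for Nr4a1 and 0.45 ± 0.13 for Nr4a2, and none passed the test. Since likeness over these same arrays chose the genes, their values in single mice and their responses describe the choice and are no separate support. In NOD.Ln82-LCMV control replicate 1, for example, Gadd45b was at 8.62 and Tnfrsf9 at 8.30.

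For Gadd45g the most similar genes were Slc7a1, a cationic amino acid transporter (RMS 0.0926), the NF-κB target and apoptosis inhibitor Birc3 (0.101), Slc7a5, the light chain of a leucine transporter (0.113), the macrophage growth factor Csf1 (0.118) and Ndrg1, a gene of hypoxia and stress responses (0.119). The SD of Gadd45g over the arrays was 0.511. In NOD.LCMV, Slc7a1 rose by 1.50 ± 0.10, Birc3 by 1.33 ± 0.06 and Csf1 by 1.24 ± 0.07 (log2, SE), near the 1.42 of Gadd45g. In NOD.Ln82-LCMV the differences were 0.17 for Slc7a1, 0.24 for Birc3 and 0.22 for Csf1, and none passed. For Gadd45a, which passed no test, the ranking was computed too, but by the naming rule its genes are not named.

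**Figure D3:**
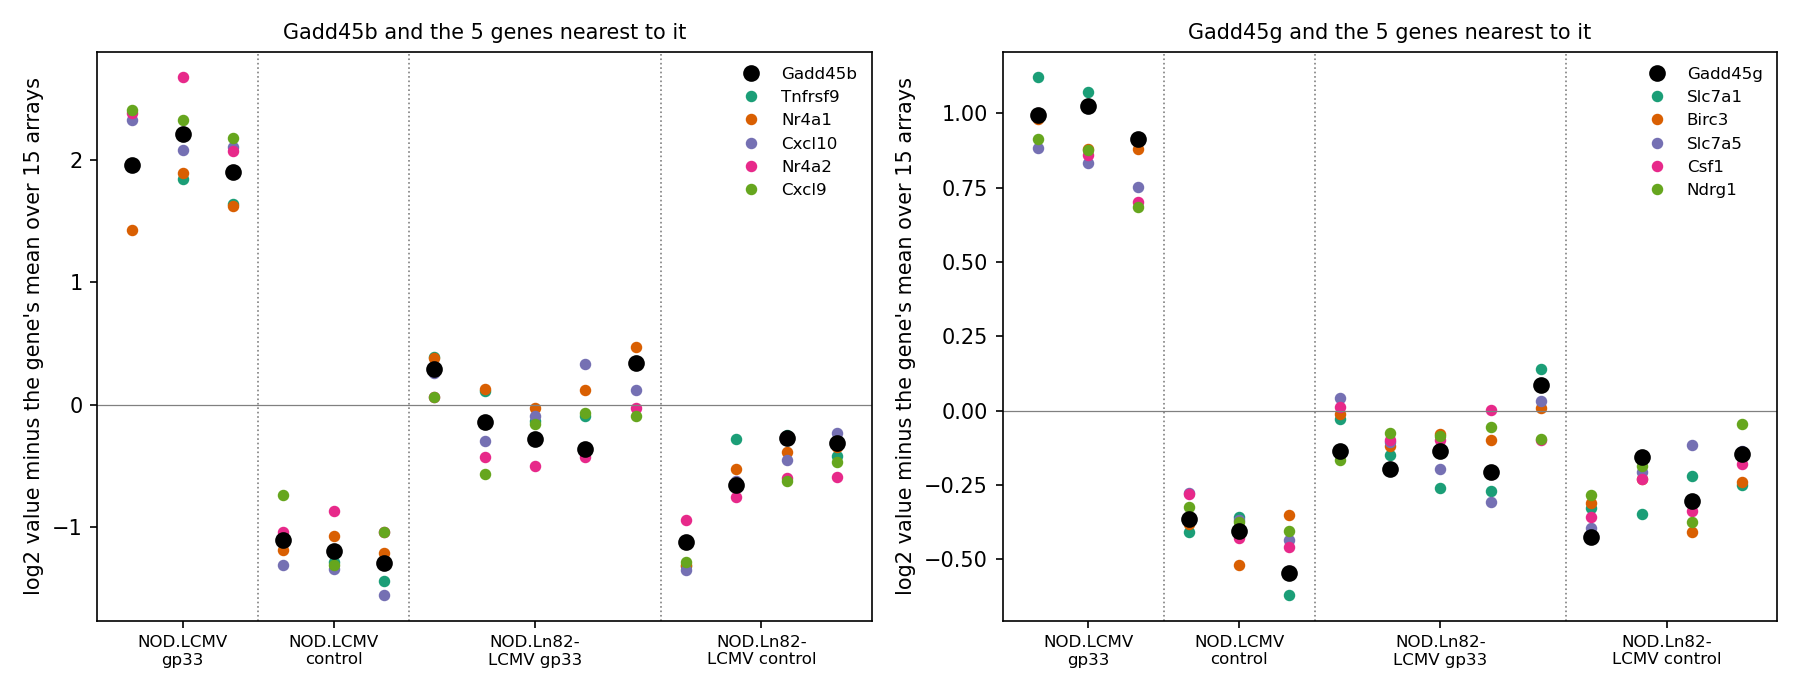
Centred log2 values (vertical axis) over the 15 arrays, grouped as NOD.LCMV gp33, NOD.LCMV control, NOD.Ln82-LCMV gp33 and NOD.Ln82-LCMV control, for Gadd45b and Gadd45g and the 5 genes most like each. The points lie close together because likeness chose them, with RMS differences of 0.199 to 0.283 for Gadd45b and 0.0926 to 0.119 for Gadd45g.

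The genes that work with the Gadd45 family were followed in 6 lists. In NOD.LCMV 25 of the 87 measured entries rose and 13 fell, against 7.29% and 12.5% of all genes. Of the MAP kinase partners, 12 of 13 were measured, and in NOD.LCMV 3 rose, 3 fell and 6 did not pass, with a median log2 change of -0.01 against -0.03 over all genes. Map2k3, a kinase that activates p38, rose by 0.80 ± 0.08 (limma, adjusted p = 3.53e-06) while Map2k6, the other p38 kinase of the pair, fell by 0.90 ± 0.11 (limma, adjusted p = 4.57e-05). The p38β gene Mapk11 rose by 0.63 ± 0.12, and Map3k5, the stress kinase ASK1, rose by 0.49 ± 0.06. Map3k4, the kinase that Gadd45 proteins open, fell by 0.22 ± 0.06 (limma, adjusted p = 0.0118), as did the p38α gene Mapk14 by 0.13 ± 0.04 (limma, adjusted p = 0.0472). Both were named after their values were seen.

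Of the cell cycle, repair and demethylation partners, 9 of 13 were measured, and in NOD.LCMV none rose, 4 fell and 5 did not pass (median -0.19). Tet1, an enzyme of DNA demethylation, fell by 0.78 ± 0.13, and the growth inhibitor Ing1 fell by 0.32 ± 0.06. The repair endonuclease gene Ercc5 fell by 0.19 ± 0.05 and the glycosylase gene Mbd4 by 0.21 ± 0.06. Pcna, a direct partner chosen after its value was seen, differed by 0.09 (limma, adjusted p = 0.242).

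Of 18 measured p53 targets out of 20, 6 rose, 2 fell and 10 did not pass (median 0.04). The polo-like kinase genes Plk3 and Plk2 rose by 1.23 ± 0.12 and 1.12 ± 0.10. Tnfrsf10b, which encodes a TRAIL receptor, rose by 0.88 ± 0.05 and the exonuclease gene Aen by 0.59 ± 0.06. These were named for their small adjusted p. Mdm2, among those that fell, was lower by 0.19 ± 0.05 (limma, adjusted p = 0.0246). Gadd45a, also a p53 target, was at 0.03 ± 0.10, close to the list median. All 18 growth arrest and integrated stress response genes were measured, of which 3 rose, none fell and 15 did not pass (median 0.06). These 3 were Atf3 at 3.57 ± 0.09, Ppp1r15a (also called Gadd34, a phosphatase subunit that is no relative of Gadd45) at 1.00 ± 0.06 and Atf4 at 0.41 ± 0.06.

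The listed regulators of Gadd45 genes act on transcription, except for the mRNA decay factor Zfp36. Of the whole list, 16 of 19 were measured, and 6 rose (Zfp36 among them), 3 fell and 7 did not pass (median 0.04). The NF-κB subunit gene Rel rose by 1.74 ± 0.09 and Myc, which represses Gadd45a, by 1.40 ± 0.07. The mRNA decay factor gene Zfp36 rose by 0.94 ± 0.05 and Stat3 by 0.55 ± 0.05. These were named for their small adjusted p. Others went down: Stat4, also in this list, fell by 0.45 ± 0.07 (limma, adjusted p = 0.000341). Foxo1, named after its value was seen, averaged 9.76 ± 0.05 with gp33 and 10.40 ± 0.03 with control peptide (SD, n = 3 each). All 14 genes of the IL-12, IL-18 and interferon-γ axis were measured, and 7 rose, 1 fell and 6 did not pass (median 0.16). Among these, Tbx21, the T helper 1 factor T-bet, rose by 3.12 ± 0.13, Ifng by 2.47 ± 0.14 and Tnf by 2.39 ± 0.15, and Stat4 fell by 0.45 ± 0.07.

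In NOD.Ln82-LCMV the limma test called 0 genes in each of these lists, and 14 of the 87 measured entries had an unadjusted p under 0.05. The medians of the lists lay between -0.09 and 0.07 there, against 5e-04 over all genes. For the difference between responses, 21 of the 87 entries were higher in NOD.LCMV and 7 lower, against 4.46% and 4.26% of all genes. By list, the numbers higher and lower were 2 and 1 for the MAP kinase partners, 0 and 1 for the cell cycle and repair partners, 6 and 1 for the p53 targets, and 3 and 0 for the stress genes. They were 5 and 3 for the regulators and 5 and 1 for the interferon-γ axis.

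**Figure D4:**
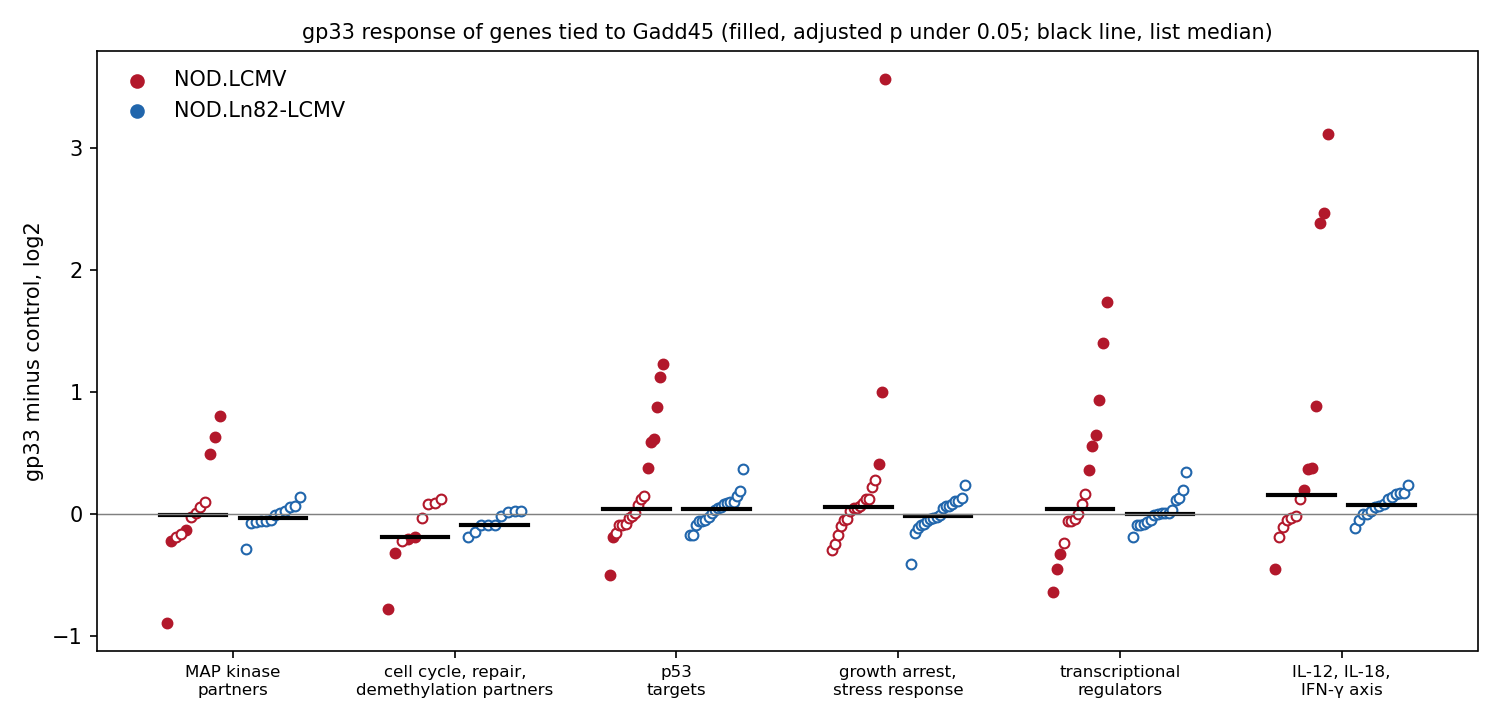
Log2 difference of gp33 minus control peptide (vertical axis) for each measured gene of the 6 lists (horizontal axis), in NOD.LCMV (left of each pair) and NOD.Ln82-LCMV, with filled points for an adjusted p under 0.05 and a black line at the list median. The genes spread widely in NOD.LCMV, up to 3.57 for Atf3, and none of the listed genes was called in NOD.Ln82-LCMV.

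Markers of the cell types that whole thymus can hold were read beside the members. Of the 84 markers, 10 rose and 14 fell in NOD.LCMV, against 7.29% and 12.5% of all genes. In the NOD.LCMV response, 8 of 8 granulocyte markers rose with Gadd45b and Gadd45g (median 0.91 on the log2 scale). Their mean level per array was 7.92 to 8.18 in NOD.LCMV gp33 mice, against 6.95 to 7.07 in NOD.LCMV control mice. It was 6.88 to 7.10 in NOD.Ln82-LCMV gp33 mice, against 6.75 to 6.89 in NOD.Ln82-LCMV control mice. Of the 11 thymocyte markers, 0 rose and 6 fell in NOD.LCMV, with mean levels of 11.02 to 11.55 after gp33 and 11.53 to 11.72 after control peptide. The numbers that rose and fell were 0 and 3 of 12 for dendritic cells and macrophages, 1 and 2 of 10 for thymic epithelium, and 0 and 1 of 7 for fibroblasts. They were 0 and 2 of 7 for endothelium and 1 and 0 of 7 for natural killer and γδ T cells. No marker of B cells (6), adipocytes (7), red cells (3) or muscle (6) passed, nor had any of them an unadjusted p under 0.05. In NOD.Ln82-LCMV the limma test called 0 of the 84 markers, and 13 had an unadjusted p under 0.05. Between the strains with gp33, where Gadd45b and Gadd45g were also higher in NOD.LCMV, 9 of the 84 markers were higher in NOD.LCMV and 37 lower. Over all genes, 10.2% were higher and 16.8% lower. All 8 granulocyte markers were higher there (median 1.13). Lower were 6 of 11 thymocyte, 4 of 6 B cell, 7 of 12 dendritic cell and macrophage, 6 of 10 thymic epithelial, 3 of 7 fibroblast and 4 of 7 endothelial markers. Of the natural killer and γδ T cell markers 1 was higher and 4 were lower, and 2 of 7 adipocyte, 1 of 3 red cell and 0 of 6 muscle markers were lower. For the difference between responses 8 of the 84 were higher and 10 lower, against 4.46% and 4.26% of all genes. Between the strains with control peptide 2 were higher and 6 lower, against 4.77% and 5.54% of all genes. The part of these cell types in the Gadd45b and Gadd45g results was not tested.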

How the data were processed

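Total RNA of whole thymus was measured on Mouse Gene 1.0 ST arrays (Affymetrix), per the labels. The deposited values are log2 intensities that the authors made by RMA, with Expression Console 1.1, per the submitters' processing notes. Of 35556 probe sets, 21789 had 1 gene symbol in the platform annotation, 1621 had several and 12146 had none. The probe set with the highest mean stood for each of 19938 genes. No value was transformed further. A limma 3.58.1 model (R 4.3.3) with 4 group means over all 15 arrays gave 5 comparisons, with Benjamini-Hochberg adjustment over all genes and calls at an adjusted p under 0.05. The fit was tested on simulated data. Replicates are mice per the series design, and their number limits the precision. The members and lists (6 of partner genes and 11 of cell type markers, named in the report) were chosen with earlier results of these data known. Of 94 different genes in the 6 lists, 85 had a probe set with that single symbol, and the others were not analysed here. Genes were named by rule: the members, of each list up to 4 genes with the smallest adjusted p in the NOD.LCMV response and up to 2 in each other comparison, and the 5 genes most like each called member, with predicted, small RNA, olfactory, vomeronasal and antigen receptor genes left out. Promoters are from RefSeq (GRCm38.p6). Alternatives changed scaling, filter, probe set choice, variance model, array weights, fitted groups and replicate block, and each array was left out in turn.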

Additional observations from a re-analysis of the deposited data

Results flagged for a closer look

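Among 42 named genes in the 2 groups large enough to test, 84 sets of values were examined for a mouse far from the others, and 4 were found. The rule flags about 1 in 20 independent sets by chance. These sets share the same mice and many of the genes are alike, so the count cannot be set against that share. Gadd45g in NOD.Ln82-LCMV gp33 replicate 5 was at 7.72, with the other mice of the group between 7.43 and 7.50. Tnfrsf9 in NOD.Ln82-LCMV control replicate 1 was at 8.30, with the others between 9.20 and 9.37. That mouse was also the lowest of its group, without a flag, for Gadd45b (8.62, the others 9.09 to 9.47). It was the lowest for Nr4a1, Cxcl10, Nr4a2 and Cxcl9 too, which likeness to Gadd45b had chosen. Map2k3 in NOD.Ln82-LCMV control replicate 3 was at 10.07, with the others between 9.92 and 9.94. Cebpg in NOD.Ln82-LCMV gp33 replicate 1 was at 9.47, with the others between 9.24 and 9.30.

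For 32 of the 42 named genes the response to gp33 differed between NOD.LCMV and NOD.Ln82-LCMV by the limma test of the difference itself, against 8.73% of all genes. Apart from the 3 members, these genes were named for small adjusted p in these comparisons or for likeness to Gadd45b and Gadd45g over the same arrays, so the choice itself favours a high count. The values that follow are that log2 difference. For Gadd45b it was 2.66 and for Gadd45g 1.28. Among the genes most like Gadd45b it was 2.40 for Tnfrsf9, 1.94 for Nr4a1, 2.84 for Cxcl10, 2.90 for Nr4a2 and 2.73 for Cxcl9. Among those most like Gadd45g it was 1.32 for Slc7a1, 1.09 for Birc3, 1.08 for Slc7a5, 1.02 for Csf1 and 1.07 for Ndrg1. In the kinase and demethylation lists it was 0.88 for Map2k3, 0.49 for Map3k5, -0.61 for Map2k6 and -0.64 for Tet1. Among p53 targets and stress genes it was 0.78 for Tnfrsf10b, 1.04 for Plk2, 0.86 for Plk3, 0.54 for Aen, 3.33 for Atf3, 0.87 for Ppp1r15a and 0.35 for Atf4. Among regulators and the interferon-γ axis it was 1.39 for Rel, 1.28 for Myc, 0.81 for Zfp36, 0.54 for Stat3, 2.95 for Tbx21, 2.30 for Ifng, 2.22 for Tnf, -0.40 for Stat4 and 0.31 for Il12rb2.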

How the results depend on the processing

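Each result of the 3 genes was recomputed under 9 alternatives and without each of the 15 arrays. The 6 called results of Gadd45b and Gadd45g (response in NOD.LCMV, difference between responses, strain difference with gp33) kept their direction and call in all of them, with Gadd45b at 3.12 to 3.28, 2.55 to 2.84 and 1.96 to 2.15 without single arrays. The Gadd45b strain difference with control peptide passed when arrays were centred on their medians (-0.67), when dim genes were left out (-0.61) and with array weights (-0.74), and lay between -0.78 and -0.50 without single arrays, passing without NOD.Ln82-LCMV control replicate 1 or gp33 replicate 5. That of Gadd45g passed after a second quantile normalization (-0.25) and with median centring (-0.25). Gadd45a passed between the strains with gp33 under array weights (0.22) and lay between 0.12 and 0.25 without single arrays, passing without NOD.Ln82-LCMV gp33 replicate 5. Its strain difference with control peptide kept its sign (0.1025 to 0.2375 without single arrays). Its responses to gp33 and their difference did not: in NOD.LCMV it was -0.0158 with array weights and -0.055 to 0.085 without single arrays, in NOD.Ln82-LCMV -0.0713 to 0.0187, and between responses -0.0345 to 0.11. The sign turned when NOD.LCMV control replicate 1, or replicate 2 of its gp33 group, was left out (NOD.LCMV, between responses) and without NOD.Ln82-LCMV control replicate 3 or gp33 replicate 3 (NOD.Ln82-LCMV). The Gadd45b difference in NOD.Ln82-LCMV was 0.33 with array weights and 0.38 to 0.66 without single arrays, and passed in none of the alternatives. The causes were not tested.

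The number of genes called in NOD.Ln82-LCMV was 0 with every probe set, 0 with only the compared groups, 4 with a variance trend, 4 with array weights, and 0 to 2 without single arrays. Called genes numbered 3175 for the difference between responses with array weights. For the strain difference with control peptide they were 3928 with every probe set, 4350 with array weights and 1049 to 2721 without single arrays (1188 without NOD.Ln82-LCMV control replicate 3, 1310 without NOD.LCMV control replicate 2, and 1049 without its replicate 3). For the strain difference with gp33 they were 8240 of 35556 probe sets with every probe set, against 5386 of 19938 genes in the main fit. The other counts with every probe set are also out of 35556, so they compare with the rest only as shares. With median centring, the share of called genes that were higher was 47.2% in NOD.LCMV (36.9% as reported), 65.5% between responses (51.1%), 15.3% between strains with control peptide (46.3%) and 27.7% with gp33 (37.7%).

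Replicate numbers are shared by NOD.Ln82-LCMV gp33 and control mice, and the labels do not say whether they pair mice. Deviations of same-numbered mice correlated at 0.117, 0.00848, -0.0495 and -0.226. Those of differently numbered mice ran from -0.352 to 0.49. These few values gave no sign of pairing, but they are too few and too widely spread to exclude it. With the replicate block, Gadd45b differed by 0.47 in NOD.Ln82-LCMV (limma, adjusted p = 0.584), and 0 genes were called there. The only member call that changed was Gadd45a between the strains with gp33 (0.25). In that model gp33 replicate 5, which has no partner, had its own term and did not enter its group mean. The sizes 0.47 and 0.25 are thus differences without that mouse and cannot be credited to pairing.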

Other observations

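The genes next to the members on the chromosome (RefSeq order, GRCm38.p6) were read in the NOD.LCMV response. Of 12 measured genes, 2 on each side of each member, 0 rose by the limma test and 1 fell, against 7.29% and 12.5% of all genes. An unadjusted p under 0.05 was found for 2, and the log2 changes ran from -0.28 to 0.19. Next to Gadd45b, Lmnb2 was at 0.09 and Gng7 at -0.02. Next to Gadd45g, Diras2 fell by 0.28 ± 0.06 (limma, adjusted p = 0.00565) and Sema4d was at 0.15. Next to Gadd45a, Gng12 was at 0.03. These neighbours were named after their values were seen.

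Between the strains with control peptide, 3 of the 87 list entries were higher and 6 lower by the limma test, against 4.77% higher and 5.54% lower over all genes, so the lists held calls at about the share of all genes. No Gadd45 gene passed. The single genes that follow are given as values. In NOD.LCMV thymus relative to NOD.Ln82-LCMV thymus, Map3k1, a kinase upstream of JNK, was higher by 0.24 ± 0.06 (log2, SE; limma, adjusted p = 0.0135). Ddit4, an inhibitor of mTOR complex signalling, was lower by 0.48 ± 0.13 (limma, adjusted p = 0.033). Nfya, a subunit of the factor that binds CCAAT boxes, was lower by 0.33 ± 0.06 (limma, adjusted p = 0.00355), and the IL-12 receptor gene Il12rb2 by 0.32 ± 0.06 (limma, adjusted p = 0.00213). Of the genes most like Gadd45b, Tnfrsf9 differed by -0.71 (limma, adjusted p = 0.0433) and Cxcl10 by -0.74 (limma, adjusted p = 0.0315), while Nr4a1 at -0.51 did not pass (limma, adjusted p = 0.109).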
